A study of Mus musculus with 6 samples.

Results

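The transcription factors that set up and hold T cell identity were measured in mouse cells sorted as leukemic double-positive T cells. The samples form a control group and a group labelled Klf4-deficient. The members are all probes annotated to Tcf7, Lef1, Gata3, Bcl11b, Runx1, Runx3, Ikzf1, Ikzf3, Satb1 or Tox, which came to 24 of the 45281 probes on the array. These 24 probes belong to 9 of the 10 genes; no probe carried the name Tcf7, and Tcf7 was not analysed here. The arrays are Illumina bead arrays, 1 per sample, and each value is the brightness of 1 probe in arbitrary units.

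Both groups hold 3 arrays, of RNA from male mice with T cell acute lymphoblastic leukemia (T-ALL) that NOTCH1 had been used to induce. GFP-positive cells carrying CD4 and CD8 were sorted from the bone marrow 4 weeks after transplantation. The control group is described as wild type and the other as knock out for Klf4, a zinc finger factor of the Krüppel-like family. The sources used here do not give the allele, the Cre driver or the vector. Nothing says that the 3 samples of a group came from separate animals, so p-values measure only the spread between these samples, which may be technical.

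As background, T cell development passes through steps that are each held by a few DNA-binding proteins. Notch signals in the thymus switch on Tcf7 and Gata3, which open the T cell programme. Bcl11b then shuts off the genes of other lineages at commitment. Lef1, Runx1, Ikzf1, Satb1 and Tox act up to and through the double-positive stage, where the coreceptors CD4 and CD8 are both made, and Runx3 is known for silencing Cd4 in cells that become CD8 T cells. Loss of function of Bcl11b, Lef1, Runx1, Gata3 or Ikzf1 occurs in T-ALL.

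Stretches of promoter are printed for 3 of these genes, because Bcl11b held the probe that separated the groups, Lef1 had log2 differences below 0 on both of its probes above background without passing, and Runx3 gave no signal above background. Each is the 250 bases before the most upstream listed start of the gene, taken from RefSeq on GRCm38.p6 and read 5′ to 3′ on the gene's strand. Capitals mark matches on either strand to 5 short motifs that overlap nowhere in these windows: the KLF core CACCC, the TCF and LEF core CTTTGA, the RUNX core TGTGGT, the GATA motif AGATAA and the Ikaros core TGGGAA.
Bcl11b chr12:108003415-108003664 (- strand): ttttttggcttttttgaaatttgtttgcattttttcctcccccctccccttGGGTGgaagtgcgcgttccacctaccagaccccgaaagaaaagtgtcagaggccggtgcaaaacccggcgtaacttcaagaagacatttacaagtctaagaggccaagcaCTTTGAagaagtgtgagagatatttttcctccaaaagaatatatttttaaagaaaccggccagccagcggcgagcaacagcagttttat
Lef1 chr3:131110047-131110296 (+ strand): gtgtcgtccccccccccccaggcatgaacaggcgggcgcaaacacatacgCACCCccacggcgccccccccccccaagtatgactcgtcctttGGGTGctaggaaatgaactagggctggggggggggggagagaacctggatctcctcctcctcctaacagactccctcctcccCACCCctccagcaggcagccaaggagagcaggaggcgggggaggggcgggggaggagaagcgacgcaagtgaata
Runx3 chr4:135120395-135120644 (+ strand): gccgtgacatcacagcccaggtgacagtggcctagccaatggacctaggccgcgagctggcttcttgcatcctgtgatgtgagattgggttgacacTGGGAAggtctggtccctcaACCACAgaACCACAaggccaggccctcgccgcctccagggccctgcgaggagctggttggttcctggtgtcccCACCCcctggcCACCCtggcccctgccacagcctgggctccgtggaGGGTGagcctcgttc

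The Bcl11b window held 1 match to CTTTGA and 1 to CACCC. The Lef1 window held 3 matches to CACCC and none to the other motifs searched. The Runx3 window held 2 matches to TGTGGT, 3 to CACCC and 1 to TGGGAA. Of 32851 windows of the same length over all genes, 52% held CACCC, 13.8% CTTTGA, 14% TGTGGT, 9.99% AGATAA and 21.6% TGGGAA, while 21.1% held CACCC and 1.27% TGTGGT at least 2 times. The matches describe letters in these windows and were not set against binding data. Promoter windows were found for 8 of the 10 genes, and those of Ikzf3 and Tox were missing from the table.

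The mean probe signal of an array ran from 359 to 445, lowest in Klf4-deficient array 3, and between 37.9% and 38.5% of probes were above background on an array. The limit for background, 3 SDs of the background signal, lay between 21.8 and 23.7. On the brightest Klf4 probe the control arrays gave 44, 18.4 and 24.6 and those labelled Klf4-deficient gave 80.6, 46 and 85.4, so it was not lower in the group labelled as lacking the gene (log2 difference 1.03 ± 0.32 (SE), adjusted p = 0.738 from limma). This probe was above background on 5 of 6 arrays. Both other Klf4 probes were above it on 0, with log2 differences of -0.02 ± 0.02 and -0.31 ± 0.15. Where the brightest probe lies relative to the deleted part is unknown, so it may check nothing, and every direction given here rests on the labels. Of the coreceptors used in the sort, Cd4 gave between 1044 and 1477 on its brighter probe and Cd8b1 between 25892 and 29424 on its brightest. The brighter Cd8a probe gave between 12 and 34 and was above background on 4 of 6 arrays, and the other Cd8a probe on 0.

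Over the member probes, no transcript of a T lineage factor passed the test between the groups. Of the 24 probes, 0 passed in limma at an adjusted p under 0.05, where 0.00442% of all 45281 probes did, namely 1 probe of Commd10 and 1 unnamed probe below background, both named after their values were seen. Of the members, 20 were above background on all 6 arrays, and the other 4 were above it on none, so the limit did not favour a group. Of these 20 probes, 10 were above 0 and 10 below 0 in the log2 difference, with a median of -0.01, beside -0.02 for the 15173 probes of the array above background on every array. At an unadjusted p under 0.05 stood 1 of the 20, a share below the 11.3% of probes above background on all 6 arrays.

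**Figure D1:**
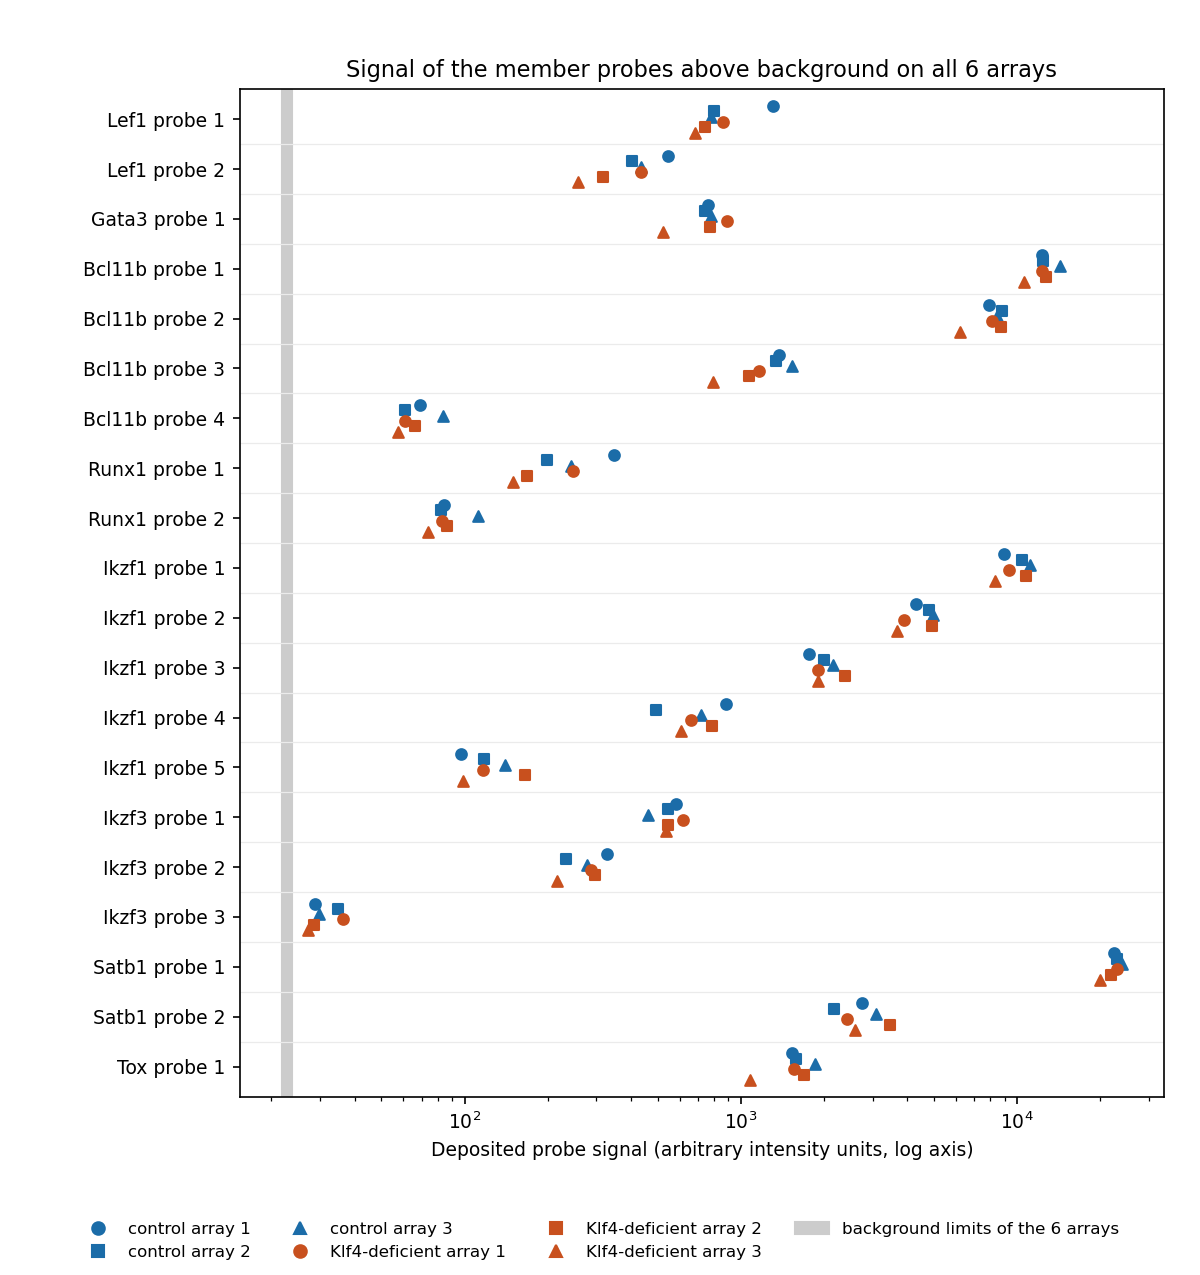
Deposited signal (log axis, arbitrary intensity units) of the 20 member probes above background on all 6 arrays, 1 row per probe and 1 point per array, with control arrays in blue and Klf4-deficient arrays in orange. Probes of a gene are numbered from the brightest, the grey band spans the background limits of the arrays (21.8 to 23.7), and Bcl11b probe 3 is the row where all 3 orange points lie below all 3 blue points.

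Bcl11b, the zinc finger repressor that commits cells to the T lineage, was bright on its leading probe and showed the widest gap between groups on another. All 4 of its probes are annotated to the same RefSeq transcript. On probe 3 the controls gave 1371, 1337 and 1532, and the Klf4-deficient arrays gave 1161, 1068 and 791. Every Klf4-deficient array lay below every control array on this probe, in the deposited and in the normalized values. It was the 1 member probe of 20 whose groups did not overlap, and 16.8% of the probes above background on all 6 arrays had groups that did not overlap in either direction. Its means were 1413 ± 104 and 1007 ± 193 (SD, n = 3 each), and its log2 difference was -0.39 ± 0.09 (SE, 95% interval -0.63 to -0.16). The unadjusted p of 0.00783 did not pass after adjustment over all probes (adjusted p = 0.597 from limma).

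The other Bcl11b probes did not separate the groups. Probe 1, the brightest, gave 12268, 12419 and 14272 in controls, against 12317, 12737 and 10589 in the Klf4-deficient arrays. Its log2 difference was -0.05 ± 0.06 (SE), with an interval that runs from 0.87-fold to 1.07-fold. Probe 2 gave means of 8397 ± 450 and 7686 ± 1317 (SD, n = 3 each) and differed by -0.01 ± 0.08. Probe 4, at a mean of 71.3 in controls, differed by -0.11 ± 0.10. All 4 Bcl11b probes were thus below 0 in the log2 difference, but the intervals of 3 of them include 0, and probe 2 was at 0.04 without control array 2 and likewise without Klf4-deficient array 3. Whether probe 3 differs from the other 3 probes was not tested.

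Lef1 is an HMG box factor that binds the same DNA motif as Tcf7 and acts up to and through the double-positive stage. Lef1 probe 1 gave 1310, 802 and 777 in controls, against 864, 740 and 683 in the Klf4-deficient arrays. Control array 1 stood well above the other 5 arrays, which overlapped. The log2 difference was -0.19 ± 0.21 (SE, 95% interval -0.75 to 0.37, adjusted p = 0.869 from limma), and without control array 1 it was 0.02. Lef1 probe 2 gave 543, 403 and 435 in controls, against 435, 317 and 258 in the Klf4-deficient arrays. On this probe Klf4-deficient array 1 was level with control array 3 and above control array 2, while arrays 2 and 3 lay below all controls. Its log2 difference was -0.35 ± 0.17 (adjusted p = 0.824 from limma), from -0.25 without Klf4-deficient array 3 to -0.51 without Klf4-deficient array 1. Both other Lef1 probes were below background on every array.

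Gata3, the zinc finger factor needed from the earliest T cell step, was measured by 1 probe. It gave 759, 743 and 780 in controls, against 892, 771 and 522 in the Klf4-deficient arrays. The controls lay within a narrow band, and Klf4-deficient arrays 1 and 3 lay above and below it. The normalized log2 difference was 0.00 ± 0.14 (SE, 95% interval -0.38 to 0.38), with a log2 SD of 0.05 for the controls and 0.27 for the other group. Without Klf4-deficient array 1 it was -0.13.

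Runx1 and Runx3 encode DNA-binding subunits that share the partner Cbfb, and Runx1 represses Cd4 in early thymocytes. Runx1 probe 1 gave 347, 199 and 243 in controls, against 248, 168 and 150 in the Klf4-deficient arrays. As on the first Lef1 probe, control array 1 was the highest, and Klf4-deficient array 1 lay among the controls. The log2 difference was -0.36 ± 0.24 (SE, 95% interval -0.97 to 0.26, adjusted p = 0.824 from limma), the least precise of the 20 in the fit without a replicate block. It was -0.18 without control array 1 and -0.53 without Klf4-deficient array 1. Runx1 probe 2, dim at 84.2, 82 and 112 in controls, gave 82.9, 86.7 and 73.9 in the other group and differed by -0.08 ± 0.11. The Runx3 probe was below 0 on all 6 arrays, from -14.5 to -3.7, so no fold is given. Cbfb itself had means of 7140 ± 542 and 6846 ± 1182 (SD, n = 3 each) and a log2 difference of 0.04 ± 0.08.

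**Figure D2:**
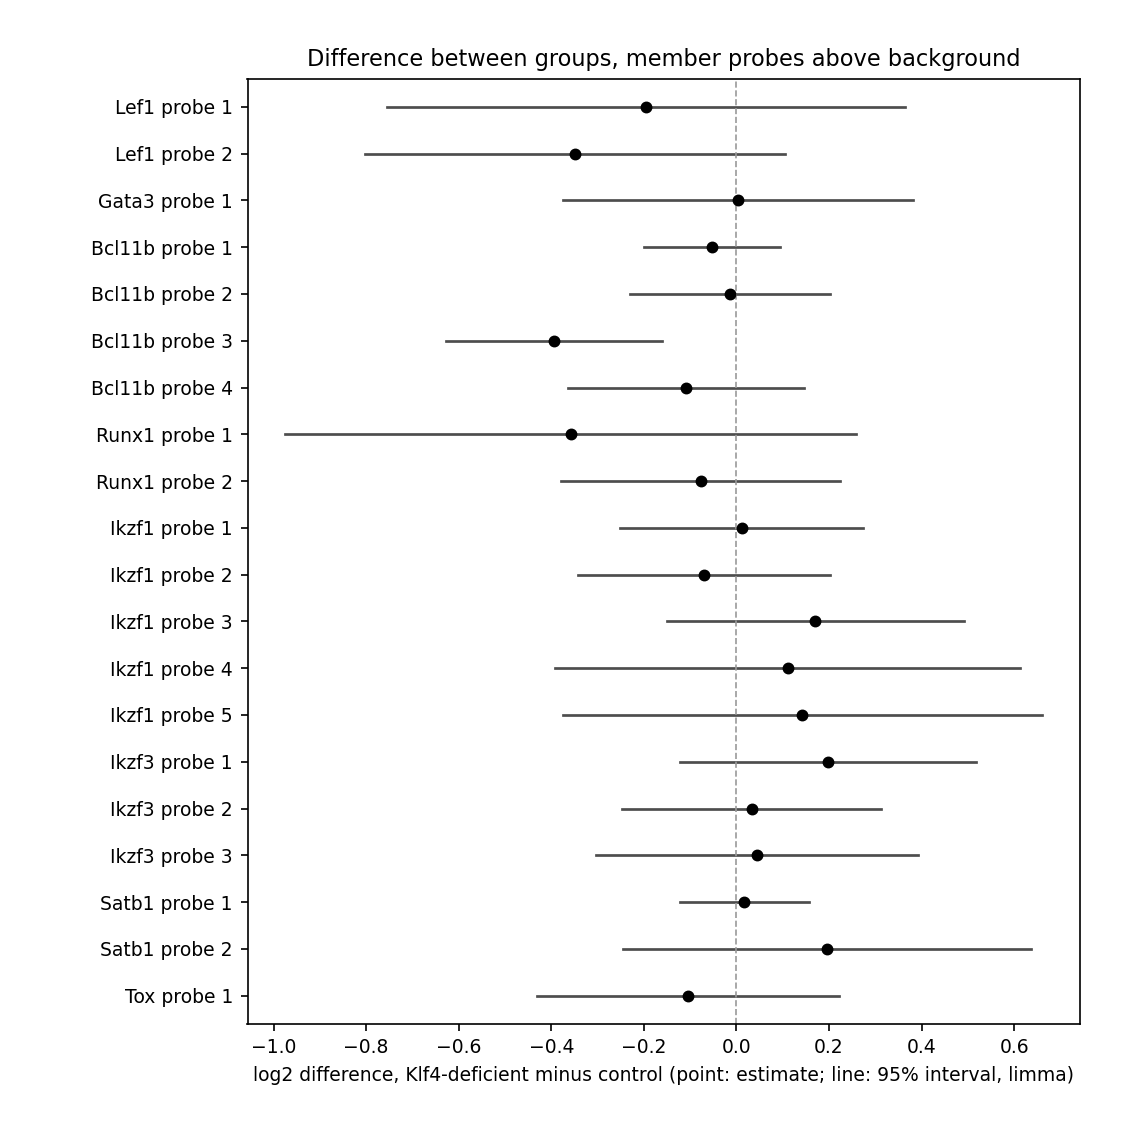
Log2 difference, Klf4-deficient minus control (x axis), of the 20 member probes above background on all 6 arrays, with points for the limma estimate and lines for its 95% interval. The interval excludes 0 for 1 probe, Bcl11b probe 3, and includes it for 19.

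Ikzf1 and Ikzf3, which encode the zinc finger factors Ikaros and Aiolos, showed no separation on any of their 8 probes above background. Ikaros holds thymocytes back from proliferating on weak signals and silences Notch targets, and Aiolos is its relative of later lymphoid stages. Ikzf1 probe 1 gave 8920, 10387 and 11075 in controls, against 9324, 10741 and 8306 in the Klf4-deficient arrays, with a log2 difference of 0.01 ± 0.10 (SE). Its interval ran from 0.84-fold to 1.21-fold under quantile normalization. The difference was -0.08 ± 0.15 with median centring and -0.10 ± 0.14 with no normalization. The remaining Ikzf1 probes above background ran from -0.07 ± 0.10 for probe 2 to 0.17 ± 0.12 for probe 3. Probe 3 is annotated to another RefSeq transcript of Ikzf1 than probe 2, gave 1766, 1999 and 2149 against 1895, 2382 and 1905, and had an adjusted p of 0.824 from limma. A further Ikzf1 probe, annotated to a cDNA clone, was below background on every array.

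The 3 Ikzf3 probes, for Aiolos, had log2 differences above 0 and did not pass. Ikzf3 probe 1 gave 585, 547 and 460 in controls, against 618, 545 and 537 in the Klf4-deficient arrays, so the groups overlapped. Its log2 difference of 0.20 ± 0.12 (SE, 95% interval -0.12 to 0.52, adjusted p = 0.824 from limma) was 0.09 without control array 3. Both other Ikzf3 probes differed by 0.03 ± 0.11 and 0.04 ± 0.13.

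Satb1, a chromatin organiser that arranges T cell loci in double-positive thymocytes, had the narrowest interval of the members under quantile normalization. Probe 1 gave 22377, 22892 and 23934 in controls, against 22905, 21788 and 19909 in the Klf4-deficient arrays. On the quantile normalized scale the 6 arrays nearly coincided, with a log2 difference of 0.02 ± 0.05 (SE) and an interval of 0.92-fold to 1.11-fold. Klf4-deficient array 3 was the lowest as deposited and the highest after this normalization. The difference was -0.08 ± 0.15 with median centring and -0.10 ± 0.10 with no normalization, so the narrow interval depends on the normalization. Probe 2, annotated to a cDNA clone, gave 2733, 2179 and 3088 against 2419, 3469 and 2588 and differed by 0.20 ± 0.17. Tox, an HMG box factor needed for the CD4 lineage after positive selection, gave 1526, 1584 and 1858 in controls, against 1561, 1694 and 1082 in the Klf4-deficient arrays. Only Klf4-deficient array 3 lay outside the control range on the lower side, and the log2 difference was -0.10 ± 0.12 (adjusted p = 0.898 from limma).

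**Figure D3:**
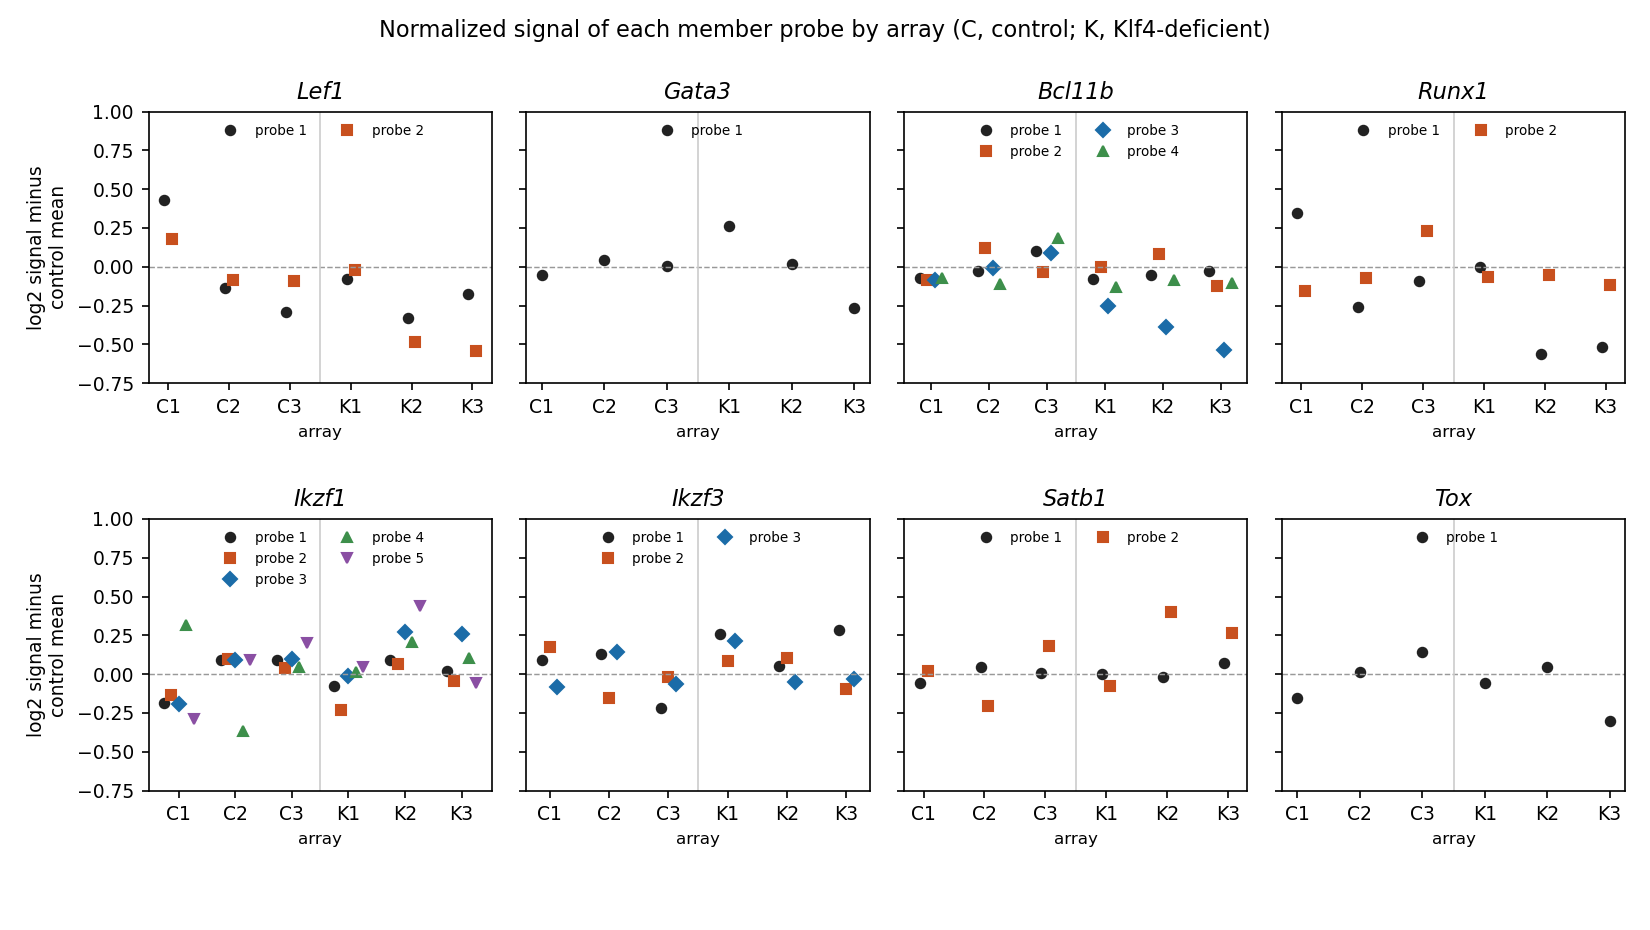
Normalized log2 signal of each probe above background minus its control mean (y axis), by array (C1 to C3 control, K1 to K3 Klf4-deficient), 1 panel per gene and 1 marker per probe. In the Bcl11b panel probe 3 lies below the control arrays in K1, K2 and K3 while the other 3 probes stay near 0, and in the Lef1 and Runx1 panels probe 1 is highest in C1.

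The arrays differed among themselves in ways that touched several members. Klf4-deficient array 3, with the lowest mean signal, was the lowest of the 6 on 15 of the 20 probes in the deposited values and on 5 of 20 after quantile normalization, where 63.5% and 32.2% of all probes above background did the same. In the normalized values control array 1 was the highest on 5 of the 20 and the lowest on 6. With arrays only centred on their median, 14 of the 20 members were below 0 and their median was -0.09, equal to the -0.09 of all probes above background. With no normalization between arrays, 15 were below 0, and both medians were near -0.11 (-0.12 for the members).

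Relatives of the member families gave no call. Of 15 listed relatives 12 were measured, with 0 passing in limma and 0 at an unadjusted p under 0.05 in either direction, where 3.48% of genes were higher and 4.13% lower by that rule. Among the 8361 genes above background on all 6 arrays these shares were 4.99% and 7.08%. Gata2, a GATA factor of progenitors and mast cells, gave 87.3, 80.5 and 24.6 in controls, against 64.9, 139 and 110 in the Klf4-deficient arrays, with overlapping groups (log2 0.73 ± 0.48 SE). Ikzf5 differed by -0.16 ± 0.10, Tox4 by -0.05 ± 0.03 and Bcl11a, the B lineage relative of Bcl11b, by 0.19 ± 0.41. The median difference of the list was 0.005, beside 0 over 19057 genes.

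Among partners and cofactors 24 of 28 were measured and 0 passed over all probes. At an unadjusted p under 0.05 there were 2 higher and 1 lower, all among the 23 above background on all 6 arrays, beside 4.99% and 7.08% of such genes. Ctnnb1 encodes beta-catenin, the coactivator of TCF and LEF factors. It gave 1659, 1476 and 1558 in controls, against 1680, 1794 and 1445 in the Klf4-deficient arrays, which overlap as deposited and separate after normalization (log2 0.17 ± 0.03 SE, adjusted p = 0.528 from limma). Tle3, a corepressor of the same factors, differed by 0.27 ± 0.09, the deacetylase Hdac3 by -0.14 ± 0.05 and Mta2, a subunit of the NuRD complex that Ikaros joins, by 0.13 ± 0.06. The list's median was -0.05.

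Other regulators of the lineage divided evenly, with 18 of 36 measured genes above 0 and 18 below. None passed over all probes, and at an unadjusted p under 0.05 stood 1 higher and 2 lower, all among the 27 above background on all 6 arrays, where 4.99% and 7.08% of such genes did so. Patz1, a zinc finger factor of Cd8 regulation, differed by 0.28 ± 0.07 (SE, adjusted p = 0.633 from limma). Tcf3, the E protein gene E2A, gave 145, 111 and 106 in controls, against 94.5, 92.6 and 68.2 in the Klf4-deficient arrays, without overlap (log2 -0.37 ± 0.13, adjusted p = 0.798 from limma). Zbtb17 differed by -0.15 ± 0.05 and Foxo3 by 0.23 ± 0.09.

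Genes that these factors regulate in T cells had 32 of 35 members measured and 0 past the test. At an unadjusted p under 0.05 there were 4 higher and 2 lower, and 4 were separated in each direction. All of these were among the 28 listed genes above background on all 6 arrays. Of such genes 4.99% were higher and 7.08% lower at that p, and 7.49% were separated as higher and 10.1% as lower (5.48% and 6.09% over all 19057 genes). Cd69, an activation marker, gave 556, 716 and 635 in controls, against 1165, 1242 and 851 in the Klf4-deficient arrays (log2 0.85 ± 0.15 SE, adjusted p = 0.510 from limma). Lat, the membrane scaffold of T cell receptor signalling, differed by 0.17 ± 0.03, and the adaptors Grap2 and Trat1 by 0.23 ± 0.06 and -0.26 ± 0.06. The list's median was -0.05, with 11 genes above 0 and 20 below.

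A list of genes that fall at or after T cell commitment had a median log2 difference of 0.20 over 26 measured genes, with 17 above 0 and 0 passing. It holds factors of multipotent progenitors and also Notch1, the Notch targets Dtx1, Hes1 and Nrarp, and Il2ra of early T cells; Dtx1 had a control mean of 9420. Relative to the control mean the list's median was 0.06, 0.10 and 0.36 in Klf4-deficient arrays 1, 2 and 3, against -0.07 to 0.12 in controls, so only array 3 lay outside the control range. The 1 gene past an unadjusted p of 0.05 was Erg (log2 0.38 ± 0.09 SE, adjusted p = 0.627 from limma), which was below background on every array. Tal1 gave 13.4, 46.1 and 70.4 in controls, against 53.2, 152 and 228 in the Klf4-deficient arrays. Lmo2 gave 407, 499 and 504 against 479, 1079 and 1539, Gfi1b gave 5.2, 31.9 and 45.8 against 27.1, 101 and 145, and Spi1 gave 30.8, 54.3 and 38.5 against 39, 68.2 and 137. On each of these 4 genes Klf4-deficient arrays 2 and 3 were above all controls and array 1 lay within their range. Kit, named after its values were seen, gave 264, 311 and 228 in controls, against 1363, 276 and 250 in the Klf4-deficient arrays. Tal1, Lmo2 and Gfi1b are also genes of red cell precursors, and Spi1 is one of myeloid cells. The part of other cells in the values of Tal1, Lmo2, Gfi1b and Spi1 was not tested.

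Erythroid markers had higher medians in the Klf4-deficient arrays than in controls, most so in array 3. The median over 7 measured erythroid markers, relative to the control mean on the log2 scale, was 0.40, 1.26 and 2.47 in Klf4-deficient arrays 1, 2 and 3, whereas the controls ran from -0.41 to 0.25. All 7 were above 0 in the difference between groups. Their summed deposited signal ran from 3583 to 5888 in controls, against from 6171 to 17319 in the Klf4-deficient arrays. For 8 monocyte and macrophage markers, all above 0, the medians were 0.44, 1.03 and 1.44, against -0.12 to 0.18 in controls. The summed signal ran from 3385 to 4653 in controls and was 4204, 4295 and 10584 in Klf4-deficient arrays 1, 2 and 3. By this sum only array 3 lay outside the control range. Lyz2 alone gave 3552, 3130 and 9308 of the 3 sums. Cd14 and Adgre1 were above background on 0 control arrays. For 8 NK and cytotoxic markers, 5 of them above 0, the medians were 0.40, 0.92 and 0.59, against -0.09 to 0.14, and the sums 2112 to 3103 against 2646 to 3526. Ncr1, Klrk1 and Gzmb were below background on every array. Prf1, the brightest of these markers, was above background on all 6 arrays and went the other way (log2 -0.18 ± 0.24 SE). Of 8 neutrophil markers 7 were above 0, with sums of 66068 to 89471 against 66036 to 113892. Neutrophil markers were thus bright in both groups. S100a8 alone gave from 25775 to 29464 in controls and from 23294 to 24971 in the Klf4-deficient arrays. Member signals are those of the sorted samples, and the part from double-positive T cells was not tested. The neutrophil medians were -0.20, -0.03 and 1.16, against -0.28 to 0.29 in controls, so only Klf4-deficient array 3 lay outside the control range. Of 7 B lineage markers 4 were above 0, with sums of 692 to 916.6 against 582 to 817, and Pax5 was below background on every array. Gata1, the defining red cell factor, was above background on 0 control arrays and 1 Klf4-deficient array.

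Of the 10 measured genes listed for the double-positive stage, CD3 chains among them, 9 had log2 differences below 0, with a median of -0.09. Of all probes above background on all 6 arrays, 55.3% were below 0. Cd8a, one of the 9, was above background on 4 of 6 arrays. The summed signal of the 10 ran from 80685 to 85381 in controls, against from 67814 to 77485 in the Klf4-deficient arrays. It was lowest in Klf4-deficient array 3, which also had the lowest mean signal of the 6 arrays. The deposited sums of the member genes ran from 48091 to 53398 against 41776 to 49183. After normalization the median of the double-positive markers was -0.13, -0.08 and -0.07 in Klf4-deficient arrays 1, 2 and 3, against -0.06 to 0.03 in controls. Of the 5 measured markers of single-positive cells, Ccr7 and S1pr1 were below background on every array. The sums ran from 528 to 697 in controls and were 1464, 660 and 573 in Klf4-deficient arrays 1, 2 and 3. Klf2 alone gave 1306 of the sum in array 1. The normalized median over the 9 measured member genes was between -0.05 and 0.01 in all 6 arrays. Runx3, below 0 as deposited on all 6, enters this median as a fixed 0. Genes of opposite sign also cancel in it, such as Runx1 at -0.36 and Ikzf3 at 0.20. In bulk RNA, fewer cells of a type and less RNA per cell cannot be told apart. The part of other cells in the values of the member genes, Bcl11b, Lef1 and Runx1 included, was not tested.

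**Figure D4:**
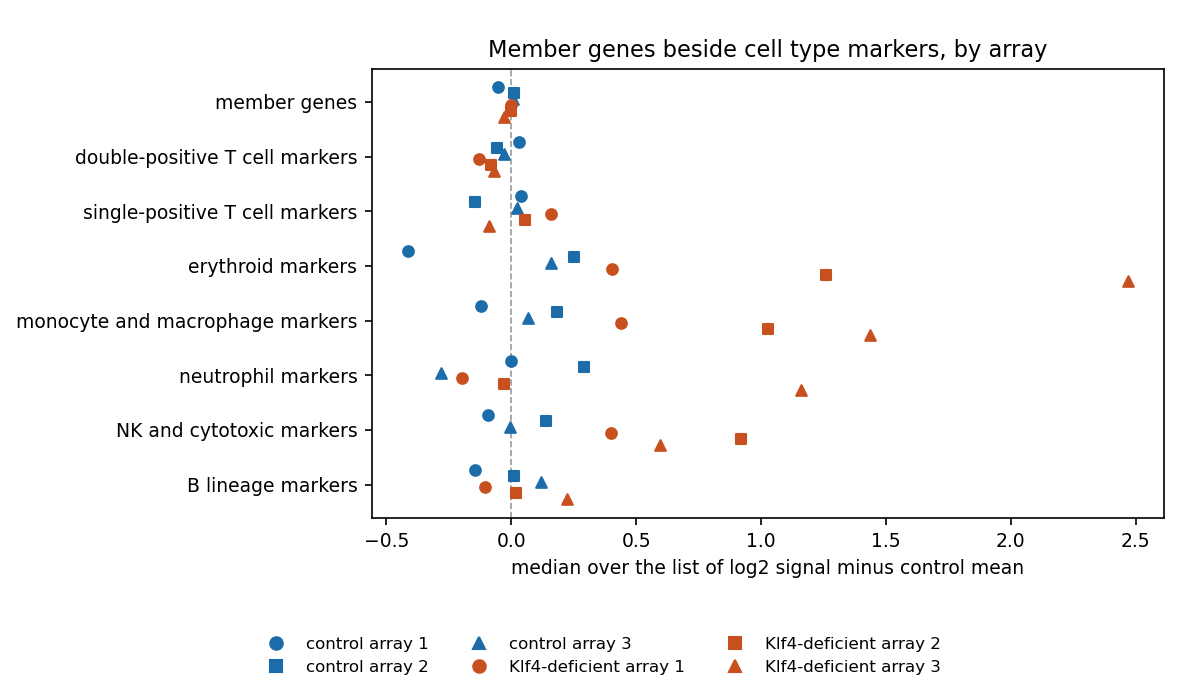
Median over each gene list of the normalized log2 signal minus the control mean (x axis), 1 point per array, for the member genes and 7 lists of cell type markers. The member genes, with Runx3 as a fixed 0, lie between -0.05 and 0.01 on every array. Erythroid markers reach 2.47 and monocyte and macrophage markers 1.44 in Klf4-deficient array 3.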

How the data were processed

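The authors deposited 1 table of probe intensity on a linear scale for 45281 probes and 6 arrays, and BeadStudio is the tool that the submitters' processing notes name, without a version. Values below 0 (31.3% to 34.2% of an array) show that a background was subtracted. The method, any normalization between arrays and detection p-values are not stated in those notes. No array was left out.

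Values below 0 were set to 0, 16 was added, and log2 values were quantile normalized. Every probe was fitted with limma 3.58.1 in R 4.3.3 (lmFit, eBayes with a variance trend, no block), and p-values were adjusted over all 45281 probes (Benjamini-Hochberg, threshold 0.05). The limit for background mirrors the negative values around 0. Errors of log2 differences are SE and those of signals SD over 3 arrays. Fold changes are on the scale of log2 of the signal plus 16. With 3 arrays a group, the smallest two-sided p of an exact permutation test is 0.10, and that test was left out. The fit was checked on simulated data. Precision is limited by the number of arrays.

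Of the probes, 34885 carried 1 gene symbol in the platform annotation, 18 several and 10378 none here. In the lists a gene is given by its brightest probe (highest mean over all arrays), and up to 4 genes per list are named, those with the smallest unadjusted p among genes above background on at least 3 arrays. For the marker lists level summaries are given, with genes at background named. Klf2, Prf1, S100a8, Lyz2 and Cd8a were named there after their values were seen. The members and lists were chosen with earlier results of these data known. Alternatives were 3 other normalizations, offsets of 1 and 50, a filter on dim probes, 1 probe or the mean of probes per gene, 2 other variance moderations, weights per array, a block for the replicate number, and leaving out each array.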

Additional observations from a re-analysis of the deposited data

How the results depend on the processing

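The count of member probes past the test was 0 under every one of the 18 alternatives, while the count over all probes, 2 in the reported setting, was 0 with median centring, with probes averaged per gene and with the replicate block, 1 with cyclic loess and with probes above background on at least 3 arrays, and between 22 and 49 when 1 array was left out. The differences of Bcl11b, Runx1, Ikzf3 and Tox (brightest probe, or the mean of a gene's probes in 1 alternative) kept their sign in all 18 alternatives. The filter on dim probes, 1 probe per gene, the 2 other variance moderations and the replicate block return the same estimate by design. Neither sign nor size could change under those, and under the remaining alternatives the size varied. With an array left out Bcl11b ran from -0.0866 to -0.0033, Runx1 from -0.53 to -0.18, Ikzf3 from 0.0874 to 0.27 and Tox from -0.18 to -0.0070. Other values changed sign. Gata3 was -0.0701 with median centring, -0.10 with no normalization and from -0.13 to 0.14 with an array left out. Ikzf1 was -0.0755 with median centring, -0.10 with no normalization and from -0.0803 to 0.0575 with an array left out. Satb1 was -0.0757 with median centring, -0.10 with no normalization, -0.0029 with array weights and from -0.0104 to 0.0392 with an array left out. Lef1 ran from -0.34 to 0.0194 with an array left out. Apart from the array that was left out, the cause was not tested.

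The deviations of same-numbered arrays from their group means correlated at 0.16, -0.03 and -0.18 over probes above background on all arrays. Klf4-deficient array 1 correlated best with control array 1, whereas arrays 2 and 3 correlated best with control arrays 3 and 2. Correlations over so many probes cannot settle whether the replicate numbers pair the arrays on single member probes, and this was not tested. With the replicate block 0 member probes passed, as without it, but the SE changed on several. On Runx1 probe 1 it was 0.04 with the block against 0.24 without. On Ikzf1 probe 3 it was 0.02 against 0.12, and on Lef1 probe 2 it was 0.07 against 0.17. On Bcl11b probe 3 it was larger with the block, at 0.11 against 0.09. Each of these probes had an adjusted p of 0.797 from limma with the block.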
